A study of Mus musculus with 4 samples.

Results

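The E2F and RB family regulators were followed here as 10 genes, taken by symbol from the 24087 rows of the deposited expression table. They were the activator E2F factors E2f1, E2f2 and E2f3, the repressor E2f4, the atypical repressors E2f7 and E2f8, the E2F dimerization partner Tfdp1, and the RB family genes Rb1, Rbl1 and Rbl2. All 10 were above the filter on low values, which asked for 2 or more libraries with an FPKM of 1 or more, and so were among the 11399 genes tested. FPKM counts fragments per length of the gene and per size of the library, so that levels of different genes can be set side by side.

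RNA-seq was performed on CD3+CD4+YFP+ Treg cells sorted from the spleens of C57BL/6 mice at steady state. The KO group was Foxp3Cre-YFP Setd2 f/f and the control group (CTRL) was Foxp3Cre-YFP Setd2 f/+, so that the controls also carried the Cre and 1 floxed Setd2 allele. Each group had 2 libraries, and each library was made from cells pooled from 2 littermate mice. Cre was expressed from Foxp3 and was in this way directed to cells that express Foxp3. Its activity in other cells was not tested here. The age of these animals was not in the labels. Setd2 encodes the methyltransferase that places H3K36me3 on gene bodies.

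E2F factors bind DNA as dimers with a DP protein such as that encoded by Tfdp1, and the genes they control include those needed for DNA replication and mitosis. In resting cells the pocket proteins of the RB family (Rb1, and Rbl1 and Rbl2, which encode p107 and p130) hold E2F factors in a repressive state. Cyclin-dependent kinases phosphorylate the pocket proteins when a cell enters the cycle, E2F target genes are then transcribed, and E2f7 and E2f8, which need no DP partner, shut them off again later in the cycle. Several E2F genes are themselves transcribed in this wave, and E2f1, E2f7 and E2f8 are known targets.

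The summed FPKM of the libraries was 465594 to 472830, and the reads behind these values, recovered from whole-number ratios between libraries, numbered at least 29988267 to 32686764. CTRL 1 stood apart in having 19100 genes above 0, against 15913 to 16410 in the other libraries. Setd2 was at 23.4 and 25.3 FPKM in the CTRL libraries and at 21.3 and 19.5 in KO. The KO libraries were lower, but the difference of -0.24 (SE 0.076) on the log2(FPKM + 1) scale did not pass the threshold (adjusted p = 0.097, limma). The value covers the whole gene, and reads over the floxed part were not separated in it. Foxp3 was at 121 and 140 FPKM in the CTRL libraries and at 112 and 119 in KO, lower in both KO libraries. The summed FPKM of 5 Treg markers was 1070 to 1180 over the 4 libraries. This sum does not show the single markers, which moved in both directions between the groups. Of the CD8 T cell markers, Cd8a was at 0.326 FPKM or less in every library, while Cd8b1 was at 8.33 to 11.2 FPKM.

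Promoter windows from 250 bases before to 50 bases after a transcription start (RefSeq, GRCm38.p6) were given for 8 of the 10 genes, all but E2f4 and Rb1. They were searched on both strands for 4 spellings of the E2F site, TTTCCCGC, TTTCGCGC, TTTGCCGC and TTTGGCGC. A match was found for 5 of the 8 genes (62.5%), whereas 442 of the 8873 tested genes with a window (4.981%) and 704 of 27025 genes in all (2.605%) had one. The matched stretches are printed because few other promoters hold such letters. Each is written 5′ to 3′ on the strand of the gene, with the matching bases in capitals.
E2f2: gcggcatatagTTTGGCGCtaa
E2f3: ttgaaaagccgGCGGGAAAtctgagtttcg
E2f7: cccgcgtccccGCGGGAAAcgctcccgcgt
Rbl1: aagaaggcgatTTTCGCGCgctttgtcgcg
Tfdp1: gggcgccgaagGCGCGAAAaggcgcgcagg

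The E2f2 stretch lay at chr4:136172302-136172323 on the plus strand, with the match starting at position 40 of the RefSeq transcript, and the whole window lay before the GENCODE start of the gene. The E2f3 stretch lay at chr13:29986056-29986085 on the minus strand, and its match, on the strand opposite to the gene, began at position -11, counted back from the start. The E2f7 stretch lay at chr10:110745230-110745259 on the plus strand, with a match on the opposite strand that began at position -198. The Rbl1 stretch, at chr2:157204534-157204563 on the minus strand, held a match on the strand of the gene that began at position -18. The Tfdp1 stretch, at chr8:13338697-13338726 on the plus strand, held a match on the opposite strand. It began at position -43 from the first RefSeq start of Tfdp1 and at -96 from the second. The letters were not present in the windows of E2f1, E2f8 and Rbl2. For E2f1 the RefSeq transcript start, around which the window was set, lay 466 bases inside the outermost annotated start. The G and C content of the windows was 50.7% to 80.7%, and a match is a description of the sequence and not a measured binding site.

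In CTRL Treg cells the repressor E2f4 was the most abundant E2F transcript and Rbl2 the most abundant RB family transcript. E2f4 made up 54.79% and 56.66% of the FPKM summed over E2f1 to E2f8 in CTRL 1 and CTRL 2, followed by E2f2 with 17.68% and 17.56%. E2f1, E2f3 and E2f8 each stood at 3.2% to 3.97%, and E2f7 was the lowest of the E2F genes with 1.28% and 0.96%. Within the RB family, Rbl2 gave 52.15% and 51.58%, Rb1 29.12% and 30.55%, and Rbl1 18.73% and 17.87%. The order Rbl2, Rb1, Rbl1 was the same in all 4 libraries with no overlap between neighbours. Among the lower E2F genes, the CTRL levels of E2f1, E2f3 and E2f8, between 3.77 and 4.91 FPKM, overlapped. In the plot of levels by library the points of E2f4, Rbl2 and Tfdp1 lie highest and those of E2f7 lowest.

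**Figure D1:**
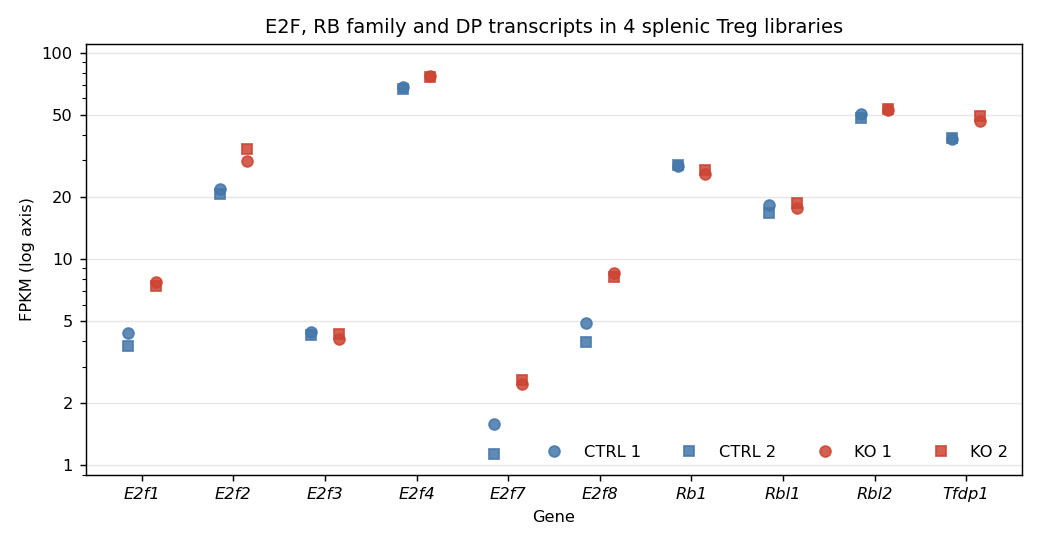
FPKM (y axis, log scale) of the 10 E2F, RB family and DP genes (x axis) in CTRL (blue) and KO (red) libraries, with circles for replicate 1 and squares for replicate 2. The red points lie above the blue ones without overlap for E2f1, E2f2, E2f4, E2f7, E2f8, Rbl2 and Tfdp1, and below them for Rb1.

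Comparing KO with CTRL, 4 of the 10 genes rose (E2f1, E2f2, E2f8 and Tfdp1) and 0 fell, at an adjusted p under 0.05 by limma over all 11399 genes. Of all genes tested 581 were higher (5.1%) and 530 were lower (4.65%) by the same rule. The 10 genes were chosen with earlier results of these data known, and E2f5, which was lower in KO, is not among them. Their counts are therefore a description and not an independent test of the family. Both KO libraries were above both CTRL libraries for 7 of the 10 genes, against 29% of all genes tested, and below them for 1 gene, Rb1, against 35.5%. At an unadjusted p under 0.05 by limma, 6 of the 10 were higher and 0 were lower. Of all 11399 genes 1855 were higher and 2099 (18.4%) lower by that rule. Limma-voom on the recovered reads, at an adjusted p under 0.05, also called 0 of the 10 lower. The median difference over the 10 genes was 0.25 on the log2(FPKM + 1) scale, beside -0.02 over all genes. With 2 libraries per group an exact permutation test of a single gene cannot fall below 0.333. The p-values here combine the gene's own spread between libraries with the spread shared across genes.

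The activator factors did not move as a block, since E2f1 and E2f2 rose and E2f3 did not pass the test. E2f1, which drives entry into S phase and also has pro-apoptotic targets, was at 4.39 and 3.77 FPKM in the CTRL libraries and at 7.73 and 7.43 in KO. Both KO libraries were well above both CTRL libraries. The recovered reads were 354 and 321 in the CTRL libraries and 671 and 648 in KO, each a lower bound. The mean went from 4.08 ± 0.438 to 7.58 ± 0.21 (SD, n = 2 libraries each), a ratio of 1.86, and the log2 difference was 0.76 (SE 0.097, 95% confidence interval 0.51 to 1.01, adjusted p = 0.0346). This difference was larger than that of 98.2% of all genes tested. E2f1 lies on the minus strand at chr2:154559407-154569892 (GRCm38), where no other annotated gene overlaps it.

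E2f2, an activator that is also known to restrain T cell proliferation, was the most abundant of the activator genes, at 21.9 and 20.7 FPKM in the CTRL libraries and 29.9 and 34.0 in KO. The groups did not overlap, and KO 2 was the highest library. The mean rose from 21.3 ± 0.848 to 31.9 ± 2.9 (SD, n = 2), which is 1.5 times, with a log2 difference of 0.56 (SE 0.083, 95% confidence interval 0.35 to 0.78, adjusted p = 0.0351). E2f2 accounted for 71.3% and 72% of the activator FPKM in the CTRL libraries and for 71.6% and 74.3% in KO. The gene lies at chr4:136172394-136196057 on the plus strand.

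E2f3, the remaining activator, was at 4.40 and 4.28 FPKM in the CTRL libraries and at 4.11 and 4.31 in KO. The groups overlapped, and the log2 difference was -0.04 with a 95% confidence interval of -0.26 to 0.19 (adjusted p = 0.801). In CTRL, E2f3 and E2f1 stood at similar levels, while in KO the lower E2f1 library (7.43 FPKM) was above the higher E2f3 library (4.31 FPKM). E2f3 lies at chr13:29906575-29986063.

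E2f4, a repressor that acts mainly with Rbl1 and Rbl2 in resting cells, was at 67.7 and 66.7 FPKM in the CTRL libraries and at 77.3 and 75.8 in KO. The KO libraries were above the CTRL libraries with no overlap, by a factor of 1.14, but the log2 difference of 0.19 (SE 0.051, 95% confidence interval 0.05 to 0.32) did not pass the threshold (adjusted p = 0.077). E2f4 (chr8:105297663-105305370) is a compact gene, with 4429 or more reads in each library. Its share of the summed E2F FPKM was 53.7% and 51.56% in KO.

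The atypical repressors had ratios close to that of E2f1. E2f8 was at 4.91 and 3.97 FPKM in the CTRL libraries and at 8.57 and 8.19 in KO. Its mean rose from 4.44 ± 0.665 to 8.38 ± 0.269 (SD, n = 2), a ratio of 1.89, and its log2 difference of 0.79 (SE 0.11, 95% confidence interval 0.51 to 1.08, adjusted p = 0.0351) was the largest of the 10 genes. E2f7, which forms homodimers and heterodimers with E2f8, was at 1.59 and 1.13 FPKM in the CTRL libraries and at 2.49 and 2.59 in KO. The groups of E2f7 did not overlap and the ratio of means was 1.87, yet the adjusted p was 0.059 (log2 difference 0.59, SE 0.14), so that it was not called. E2f7 passed with the replicate block, with limma-voom and with robust eBayes (lowest adjusted p = 0.023). The reads recovered for E2f7 were few, 285 and 215 in CTRL and 481 and 503 in KO. On the log2(FPKM + 1) scale the change of such a weakly expressed gene is understated. E2f8 lies at chr7:48866429-48881596 and E2f7 at chr10:110745439-110787384, and the antisense gene 1700020G17Rik inside E2f7 was listed at 0 in all 4 libraries.

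Tfdp1, which encodes the DP partner of the activator and canonical repressor factors, was at 38.2 and 38.5 FPKM in the CTRL libraries and at 46.5 and 49.1 in KO. The CTRL libraries were close together and both KO libraries were above them. The mean rose from 38.4 ± 0.227 to 47.8 ± 1.83 (SD, n = 2), which is 1.25 times, with a log2 difference of 0.31 (SE 0.0575, 95% confidence interval 0.16 to 0.46, adjusted p = 0.0423). The call on Tfdp1 (chr8:13338751-13378448) was the weakest of the 4, and it was lost under quantile normalization and with eBayes without the trend.

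None of the RB family genes passed the test, and their intervals exclude changes of the size seen for E2f1 and E2f8. Rb1, the founding pocket protein and the main partner of the activator factors, was at 28.2 and 28.5 FPKM in the CTRL libraries and at 25.7 and 27.0 in KO. Both KO libraries were below both CTRL libraries, with a log2 difference of -0.10 (95% confidence interval -0.25 to 0.05, adjusted p = 0.28). Rbl1, a pocket gene that is itself an E2F target, was at 18.2 and 16.7 FPKM in the CTRL libraries and at 17.6 and 18.7 in KO, so that the groups overlapped (log2 difference 0.06, 95% confidence interval -0.13 to 0.25). Rbl2, the pocket protein of resting cells, was at 50.6 and 48.1 FPKM in the CTRL libraries and at 52.7 and 53.1 in KO (log2 difference 0.10, 95% confidence interval -0.04 to 0.24, adjusted p = 0.27). The FPKM summed over the RB family was 97 and 93.2 in CTRL and 96 and 98.8 in KO.

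Rb1 (chr14:73183673-73325822, minus strand) shares 24171 bases of its span with Rcbtb2 and 5400 with Lpar6, both on the other strand, and the use of strand in the counting was not given in the sources used here. Rcbtb2 was at 10.3 and 9.75 FPKM in the CTRL libraries and 12.7 and 14.2 in KO, and Lpar6 at 17.9, 15.3, 13.1 and 20.6 FPKM in CTRL 1, CTRL 2, KO 1 and KO 2. Rbl2 (chr8:91070057-91123844) overlaps Aktip on the other strand over 12061 bases, and Aktip was at 6.05 to 7.98 FPKM. Rb1 also holds the miRNA gene Mir687, listed at 0.685 to 3.82 FPKM. Whether reads were exchanged between these genes was not tested. Rbl1 lies at chr2:157145893-157204534. E2f3, E2f8 and Rbl1 each overlap a non-coding gene or pseudogene on the other strand (Gm11365, Gm2788 and Gm14277) that was not analysed here.

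**Figure D2:**
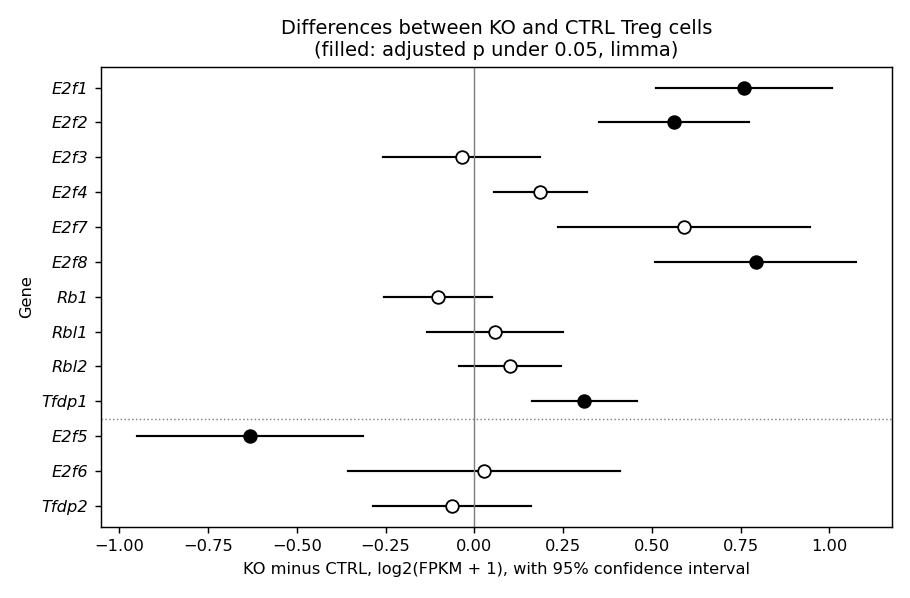
Difference between KO and CTRL in log2(FPKM + 1) (x axis) with its 95% confidence interval (bars, limma) for the 10 genes and, below the dotted line, for the other E2F and DP genes. Filled points have an adjusted p under 0.05, namely E2f1, E2f2, E2f8 and Tfdp1 to the right of 0 and E2f5 to the left.

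Activator E2F transcripts were set against those of the RB family in each library. The summed FPKM of E2f1, E2f2 and E2f3 was 30.6 and 28.7 in CTRL and 41.7 and 45.7 in KO, and its ratio to the RB family sum was 0.316 and 0.308 in CTRL and 0.434 and 0.463 in KO. The ratio of E2f1 to Rb1 was 0.155 and 0.132 in CTRL and 0.301 and 0.275 in KO. The summed FPKM of E2f7 and E2f8 was 6.49 and 5.1 in CTRL and 11.1 and 10.8 in KO, so that their ratio to the activator sum was 0.212 and 0.178 in CTRL and 0.265 and 0.236 in KO. These ratios are given as descriptions of the 4 libraries, and they concern transcripts and not protein or phosphorylation.

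Of the 3 other E2F and DP genes, 0 were higher and 1 was lower in KO, beside 5.1% and 4.65% of all genes tested. E2f5, a repressor related to E2f4, fell from 10.3 and 9.79 FPKM in CTRL to 6.95 and 5.37 in KO. Its log2 difference was -0.63 (SE 0.12, 95% confidence interval -0.95 to -0.31, adjusted p = 0.045), the opposite sign to that of E2f4. E2f6, a repressor that acts without pocket proteins, was at 8.49 and 7.38 FPKM in the CTRL libraries and 6.97 and 9.35 in KO, and the sign of its difference changed when CTRL 2 or KO 2 was left out. Tfdp2, the other DP gene, was at 4.31, 4.51, 4.24 and 4.11 FPKM in CTRL 1, CTRL 2, KO 1 and KO 2 (log2 difference -0.06, adjusted p = 0.644), and whether it differed from Tfdp1 was not tested.

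A list of 16 genes upstream of the pocket proteins held genes for cyclins, cyclin-dependent kinases and their inhibitors, and also Skp2. Of these genes 15 were tested, 2 rose and 0 fell, with a median log2 difference of 0.09. With the replicate block 5 rose. In the main setting the share that rose was 13.3%, beside 5.1% of all genes tested, and 4.65% of all genes were lower. Cdkn2b did not pass the filter on low values. Ccne1 and Ccne2 are also on the list of G1/S target genes below, so that the call on Ccne1 counts in both lists. Ccne1, the cyclin that partners Cdk2 at the G1/S transition and an E2F target, rose from 7.40 and 6.97 FPKM to 10.5 and 12.0 (log2 difference 0.58, adjusted p = 0.0375). Its kinase Cdk2 rose from 21.8 and 21.4 FPKM to 27.9 and 28.0 (0.36, adjusted p = 0.0378), and it overlaps Pmel on the other strand. The D-type cyclin genes and Cdk4 and Cdk6, which start the phosphorylation of RB proteins, did not pass the test, with log2 differences from -0.21 for Ccnd2 to 0.09 for Ccnd3 (both named after their values were seen). Cdkn1a, which encodes the inhibitor p21 and was likewise named after its values were seen, had the largest difference of the list without passing the threshold, at 5.66 and 5.26 FPKM in the CTRL libraries and 17.5 and 10.1 in KO (log2 difference 1.15, SE 0.24, adjusted p = 0.0509).

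The MuvB core joins E2f4 and a pocket protein in the repressor complex of resting cells, and it joins Mybl2 and Foxm1 in cycling cells. Of these 7 genes 1 rose, the G2/M activator Foxm1, from 9.19 and 7.92 FPKM in CTRL to 14.2 and 13.7 in KO (log2 difference 0.65, SE 0.09, adjusted p = 0.0351). The 1 gene that rose was 14.3% of the list, beside 5.1% of all genes tested. Tex52, which overlaps Foxm1 on the same strand, was at 0.519 FPKM or less. Mybl2, a target of E2F that partners the MuvB core in S phase, was at 4.82 and 3.24 FPKM in the CTRL libraries and 7.61 and 7.05 in KO, and at an adjusted p of 0.0543 it was not called. It passed in 6 of the 10 settings that kept all libraries, among them the replicate block (adjusted p = 0.0177) and limma-voom (0.026). Another of them kept only genes with a mean above 5 FPKM in either group. Mybl2 met that filter only through KO (mean 7.33, against 4.03 in CTRL), so that this pass adds no support. The core genes Lin9, Lin37, Lin52, Lin54 and Rbbp4 did not pass, with log2 differences from -0.33 for Lin52 to 0.22 for Lin37.

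The target genes of E2F at the G1/S transition encode replication factors and enzymes of nucleotide synthesis. Of 39 such genes 19 rose (48.7%) and 0 fell, beside 5.1% and 4.65% of all genes tested, and the median log2 difference was 0.49. Both KO libraries were above both CTRL libraries for 36, against 29% of all genes tested. Cdc6, which loads the replicative helicase onto origins, rose from 2.46 and 2.36 FPKM to 5.60 and 5.75 (log2 difference 0.97, adjusted p = 0.0299). Uhrf1, which maintains DNA methylation at replication, rose from 14.1 and 12.0 FPKM to 25.3 and 25.8 (0.92, adjusted p = 0.0306). The helicase subunit genes Mcm5 and Mcm3 and the replication initiation factor Mcm10 rose by 0.84, 0.82 and 0.78. At the other end Msh6, a mismatch repair gene named here after its value was seen, had a difference of -0.01.

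Of 30 G2/M genes 18 rose (60%) and 0 fell, and the median was 0.75. Both KO libraries were above both CTRL libraries for all 30, against 29% of all genes tested. The count of genes that rose was 10 with eBayes without the trend and 28 with the replicate block. The mitotic kinase genes Aurka, Plk1 and Cdk1 rose by 1.12, 1.08 and 1.06, and Cdc20 (an activator of the anaphase-promoting complex) and Top2a (the topoisomerase of mitotic chromosomes) by 1.04 each. Aurka, for example, was at 7.95 and 7.21 FPKM in the CTRL libraries and at 19.1 and 16.3 in KO. Mki67, the proliferation marker, rose from 31.8 and 24.3 FPKM to 45.1 and 44.7 (0.67, SE 0.13, adjusted p = 0.0433), a call that was lost with eBayes without the trend (adjusted p = 0.0604). Over all 92 pathway genes tested outside the 10, 39 were higher (42.4%) and 1 was lower, beside 5.1% and 4.65% of all genes. These counts too describe lists chosen with earlier results known. The plot of the gene lists shows the G1/S and G2/M genes to the right of the median of all genes, and the regulators spread on both sides of it.

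**Figure D3:**
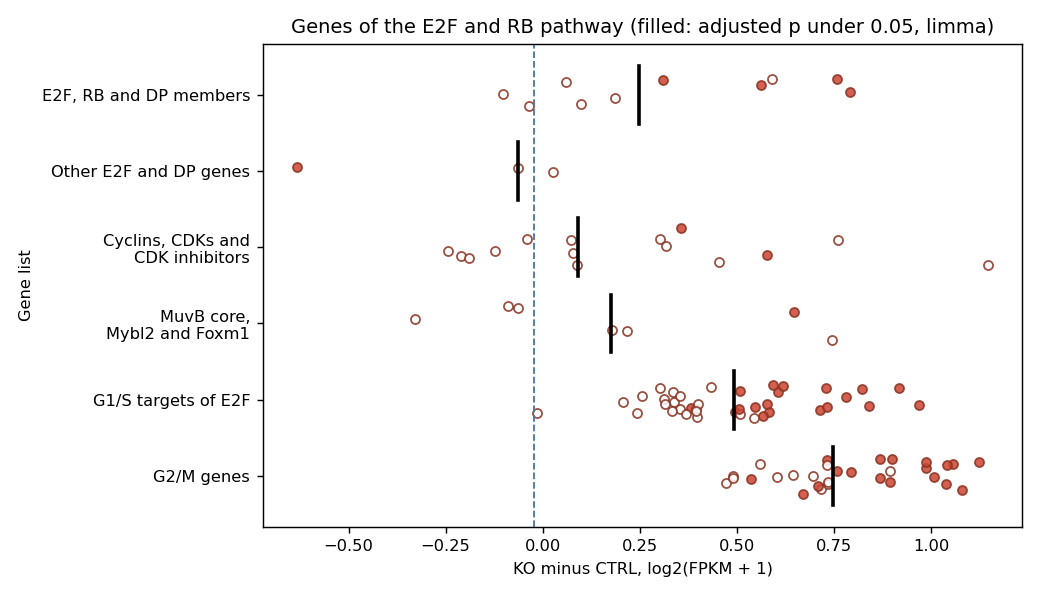
Difference between KO and CTRL in log2(FPKM + 1) (x axis) for each gene of 6 lists (y axis), filled where the adjusted p was under 0.05. Black bars are list medians and the dashed line is the median of all 11399 genes (-0.02); the medians run from -0.06 for the other E2F and DP genes to 0.75 for the G2/M genes.

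The 2 CTRL libraries were not alike for the cell-cycle genes. The summed FPKM of the 30 G2/M genes was 457 in CTRL 1 and 336 in CTRL 2, against 721 in KO 1 and 706 in KO 2, and that of the 39 G1/S genes was 840, 735, 1100 and 1100. E2f1, E2f7, E2f8 and Mki67 were also lower in CTRL 2 than in CTRL 1, while Tfdp1 and Rb1 were nearly equal between them. In bulk RNA, a larger share of cycling cells and more of a transcript in each cell cannot be told apart.

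Set against Mki67 within each library, the members kept different distances. The ratio of E2f1 to Mki67 was 0.138 and 0.155 in CTRL and 0.171 and 0.166 in KO, and that of E2f8 was 0.154 and 0.163 in CTRL and 0.19 and 0.183 in KO. The ratio of E2f2 to Mki67 was 0.687 and 0.849 in CTRL and 0.662 and 0.76 in KO, so that the groups overlapped. For Tfdp1 the ratio was 1.2 and 1.58 in CTRL and 1.03 and 1.1 in KO, below CTRL. These ratios depend on the gene chosen as reference. Mki67 rose by 0.67, less than the median G2/M gene (0.75). Whether E2f1 or E2f8 rose beyond the G2/M genes as a list was not tested. In the plot of centred values, E2f1, E2f2, E2f7, E2f8 and Mki67 are all lowest in CTRL 2. E2f1, E2f8 and Mki67 are highest in KO 1, E2f2 and E2f7 in KO 2, and Rb1 has its lower values in KO.

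**Figure D4:**
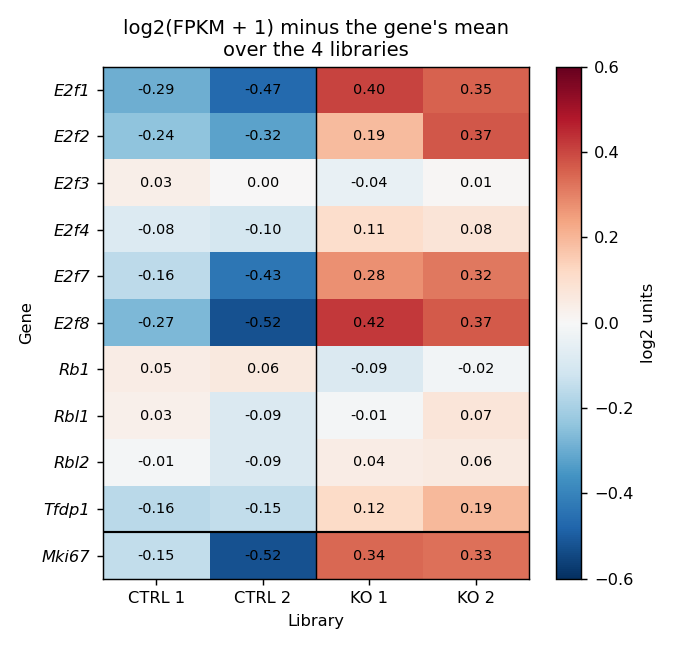
Centred log2(FPKM + 1) of the 10 genes and Mki67 (rows) in each library (columns), as the value minus the mean of the gene over the 4 libraries; colour and number give the same value. E2f8 runs from -0.52 in CTRL 2 to 0.42 in KO 1 and Mki67 from -0.52 to 0.34, while E2f3, Rb1, Rbl1 and Rbl2 stay between -0.09 and 0.07.

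The genes most like each called member were taken as the 3 with the smallest Euclidean distance between centred log2(FPKM + 1) profiles, over 4 libraries and all genes tested. For E2f1 they were Rnase4 (distance 0.0188), Trim34b (0.031) and Ccdc122 (0.0572). For E2f2 the nearest was Ccne1 (0.0166), followed by Gkap1 (0.0437) and Flywch1 (0.0543). For E2f8 they were Trim34b (0.046), E2f1 itself (0.0623) and the separase gene Espl1 (0.0631). Tfdp1 was nearest to Topbp1 (0.015), a replication checkpoint gene, then to Ciao2b (0.017) and Phf5a (0.0185). With 4 libraries, many unrelated genes can share a profile, and some of these neighbours were weakly expressed, Trim34b for example at 0.32 to 1.44 FPKM.

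Transcripts of other cell types were present and some differed between libraries. The B cell transcript Ighm was at 893 and 637 FPKM in the CTRL libraries and at 1240 and 1160 in KO, while the B cell marker Ms4a1 was at 0.535 to 2.71 FPKM and was lowest in KO 2. The 3 plasma cell markers summed to 39.2, 14.9, 46.4 and 16.7 FPKM in CTRL 1, CTRL 2, KO 1 and KO 2, and 5 myeloid markers to 163, 103, 202 and 83.2. The erythroid transcript Hba-a1 was at 11, 1.7, 18.4 and 4.39 FPKM in the same order. The plasma cell, myeloid and erythroid values were higher in replicate 1 of both groups and overlapped between CTRL and KO. Hbb-bs was listed at 0 in every library but KO 1. The 2 CD8 T cell markers summed to 8.49 to 11.4 FPKM and 4 T cell markers to 1180 to 1330. The part of the Ighm difference in the results was not tested.

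The 4 calls depended on having both libraries of each group. When any 1 library was left out, 0 of the 10 genes passed the threshold, and over all genes at most 1 was then called in each direction. The log2 difference of E2f1 was then 0.67 to 0.85, of E2f2 0.47 to 0.65, of E2f8 0.67 to 0.92 and of Tfdp1 0.27 to 0.35, with adjusted p from 0.104 to 0.158.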

How the data were processed

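Expression was measured by oligo(dT) RNA-seq (paired reads) in 2 CTRL and 2 KO libraries. The authors checked reads with FastQC, mapped them to mm10 (GRCm38) with HISAT2 2.2.1 and counted them per gene with featureCounts 2.0.1, and their own test used edgeR 3.34.0 (per the labels' processing notes and the methods). The deposited values were FPKM, scaled by the authors by gene length and library total, for 24087 rows. Annotation version, strand and multi-mapping were not given in the sources used here. Columns headed WT were taken as the CTRL libraries of the same number.

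KO was compared with CTRL by limma 3.58.1 (R 4.3.3; lmFit, eBayes with trend) on log2(FPKM + 1) over the 11399 genes that reached 1 FPKM in 2 or more libraries, two-sided, with Benjamini-Hochberg adjustment over all of them and a threshold of 0.05. Since FPKM are not counts, the count test was not the main test. Whole reads were recovered for 19887 of 19888 genes above 0 (99.995%, tolerance 0.0005 reads, lower bounds), and limma-voom on them called 868 genes higher and 1027 lower. The spread between 2 libraries per group sets the precision. The members and gene lists were chosen with earlier results of these data known. Named genes were the 10 members, Setd2, all genes of lists of up to 7, up to 5 called genes per direction of longer lists with the largest differences, Mki67, the 3 nearest profiles of each called member, and overlapping genes. Some marker genes are not reported here. Gene positions came from GENCODE vM21 and promoters from RefSeq (both GRCm38). The procedure was tested on simulated data. Python 3.11.15, numpy 2.4.6, pandas 2.3.3 and matplotlib 3.10.9 were used elsewhere.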

Additional observations from a re-analysis of the deposited data

How the results depend on the processing

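The counts of calls and the log2 differences of the members, Setd2 and the genes chosen by rule from the lists were recomputed with a smaller pseudocount (0.1), on all genes above 0 or only those above a mean of 5 FPKM, with median-ratio scaling or quantile normalization, with robust eBayes or no trend, with limma-voom on the recovered reads, without the trend over exon length, with the replicate block, and without each library in turn. E2f1, E2f2 and E2f8 were past the threshold in 9 of the 10 settings that kept all libraries, and Tfdp1 in 7. The filter at a mean of 5 FPKM asked for a mean above 5 in either group. E2f1 (mean 4.08 in CTRL and 7.58 in KO) and E2f8 (4.44 and 8.38) met it only through KO. Their pass in that setting followed a selection on the KO values and adds no support. E2f3, E2f7 and Tfdp2 gave no value under this filter, which they did not reach. Ratios, nearest profiles, list medians and counts of libraries that did not overlap were not recomputed. When all 19888 genes above 0 were tested, 0 genes were called in either direction, so that 0 of the 10 members and 0 of the other pathway genes were higher and 0 were lower. With eBayes without the trend 315 genes were higher and 0 other pathway genes lower, since E2f5 was lost. Limma-voom called 1027 genes lower, and removing the length trend left 324. Without 1 library, 0 to 1 genes were higher (1 without KO 1) and 0 to 1 lower (1 without CTRL 2), with 0 members and 0 other pathway genes in either direction. The group left with 1 library was then assumed to vary like the other group, with fewer degrees of freedom. The cause of the other changes was not tested.

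With the replicate block 968 genes were higher and 805 lower, and E2f7 joined the 4 called members, which makes 5. The replicate numbers were not shown to pair the samples: the differences between replicates of CTRL and of KO correlated across genes with Pearson's r = 0.342 but Spearman's rho = 0.0553, and there were 2 pairs only.

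The sign of a value that was not called changed for E2f3 (0.01) and Lin54 (0.0047) under quantile normalization, for Tfdp2 (0.063) with the length trend removed, for Rbl1 when single libraries were left out (-7.7e-05 without CTRL 2, up to 0.118) and for E2f6 (-0.162 without KO 2 and -0.063 without CTRL 2, up to 0.216). Of all calls 52.3% were higher in the main setting, 60.2% with median-ratio scaling, 61.6% with the length trend removed, and 45.8% with limma-voom.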
